A study of Mus musculus with 8 samples.

Results

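The integrin subunits of smooth muscle cells and the integrin-linked kinase Ilk were examined in cultured mouse aortic smooth muscle cells that received a moR-21 mimetic. The set had 10 genes, namely Itga1, Itga3, Itga5, Itga7, Itga8, Itgav, Itgb1, Itgb3, Itgb5 and Ilk, and its members were found as every array probe that carries one of these symbols. The array table held 18138 symbols on 25697 probes, and 9 of the 10 genes were among them with 12 probes in all. No probe carried the symbol Itga8, so Itga8 was not analysed here. Of the 12 probes, 9 probes of 7 genes were detected, at a detection p-value under 0.01, on 1 or more of the arrays and were tested. The probes of Itga7 and Itgb3 and the dimmer probe of Ilk were not detected on any of the 8 arrays.

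Integrins are cell surface receptors made of an alpha and a beta chain, and they join proteins of the extracellular matrix to the actin cytoskeleton inside the cell. The alpha chain contributes most to the choice of ligand, and the short tail of the beta chain binds talin, kindlin and Ilk at focal adhesions. In the arterial wall, smooth muscle cells use the beta 1 integrins to hold collagen, laminin and fibronectin, and the alpha v integrins, which recognise the RGD tripeptide, are known for their part in migration after injury and in the activation of latent TGF-beta.

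RNA came from 3 samples given a scrambled control oligonucleotide and 3 samples given the moR-21 mimetic, both at 5 nM and collected after 48 h. The cells were primary cultures grown out of explants of several mouse aortas that had been stripped of their outer layer, and all samples of both groups shared this source, the transfection reagent and the medium. The sources used here tie no strain, sex or age to these cultures, and nothing says that the samples of a group were separate cultures or animals. The spread between these samples may therefore be technical. The limma p-values rest on that spread, moderated for each probe by the spread of all tested probes. Repeat arrays, named A and B, were run for control sample 1 and for moR-21 sample 3 and were averaged here. The median intensity of the arrays was between 102 and 109, and between 10285 and 10512 probes per array were detected. The cell type label names aortic smooth muscle cells, whereas the description label spells the cells AoECs. The smooth muscle actin Acta2 was detected on all 8 arrays, and 6 of the 11 smooth muscle markers on the array were detected on at least 1. The probes of the smooth muscle myosin Myh11 and of Cnn1 and Myocd were detected on 0 of 8 arrays, and Tagln was detected on 4. Of the 10 endothelial markers 2 were detected, Egfl7 and Vwf on all 8 arrays, and 8 were not, Pecam1 and Cdh5 among them. Of the 10 macrophage markers 4 were detected, Lyz, Lyz2 and Cd14 on all 8 arrays and Csf1r on 6, and the leukocyte marker Ptprc was detected on 0.

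A moR is a small RNA cut from the stretch of a microRNA hairpin that lies next to the mature microRNA. The hairpin of mouse Mir21a in RefSeq (GRCm38.p6, minus strand) is shown as background to the treatment, first at chr11:86584142-86584158, the hairpin bases that come before miR-21a-5p, and then at chr11:86584120-86584141, miR-21a-5p itself. Capitals mark in the first the bases common to the first candidate seed windows of the study, where its mutants were made, and in the second the miR-21 seed at bases 2 to 8. The mimetic's own sequence is not given in the sources used here.
Mir21a hairpin before miR-21a-5p: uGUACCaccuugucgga
miR-21a-5p: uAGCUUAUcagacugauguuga

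Of the alpha v group, Itgb5 and Itgav were lower in the moR-21 samples, with differences of -0.30 and -0.26 on the log2 scale, and no integrin subunit of the set was higher at an adjusted p under 0.05. Intensities were quantile normalized and log2 transformed, and the groups were compared with limma over 11651 probes, with p-values adjusted by Benjamini and Hochberg. Each gene was read at its brightest tested probe. A gene was called at a fold change over 1.3 with an adjusted p under 0.002. By this rule 0 of the 7 tested members were called in either direction, against 4.38% of the 8727 genes tested called lower and 3.41% called higher. At an unadjusted limma p under 0.05, 3 of 7 were lower and 0 were higher, against 21.1% and 23.4% of all genes tested. At an adjusted p under 0.05 with no fold cutoff, 2 of 7 were lower and 0 were higher, where 17.3% of all genes tested were lower and 18.8% were higher. The groups did not overlap for 2 members with lower and 1 member with higher moR-21 samples, against 21.9% and 24.4% of all genes tested. The median difference of the 7 members was -0.06, and that of all genes tested was 0.01.

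**Figure D1:**
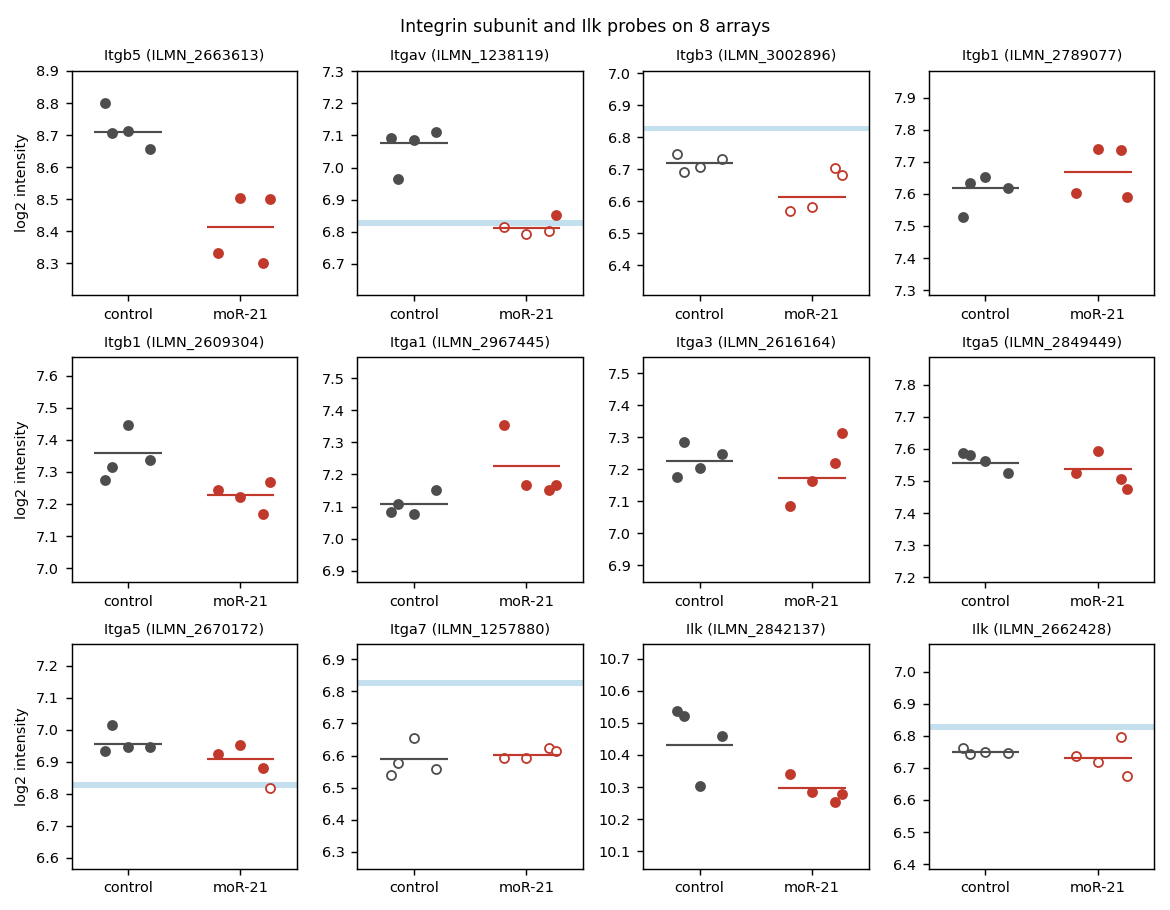
The log2 intensity after quantile normalization is plotted for the 12 probes of the set on the 8 arrays, 4 per treatment, with each line at the mean of 3 samples. Filled points were detected, open points were not, and the blue band spans the lowest detected value of each array, from 6.82 to 6.84. All control arrays lie above all moR-21 arrays for Itgb5 and Itgav, and the probes of Itga7 and Itgb3 lie below the band.

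Itgb5 (probe ILMN_2663613) encodes the beta 5 chain, which pairs with alpha v alone and binds vitronectin. The gene lies at chr16:33829665-33949338 of GRCm38.p6. Its log2 intensity was 8.75, 8.71 and 8.66 in control samples 1, 2 and 3, and 8.33, 8.50 and 8.40 in moR-21 samples 1, 2 and 3. Every moR-21 sample was below every control sample. The means were 8.71 ± 0.048 in control and 8.41 ± 0.086 in moR-21 samples (SD, n = 3 each). The difference was -0.30 (SE 0.053, 95% confidence interval -0.41 to -0.18), so that the intensity fell by 18.6%, with a limma adjusted p of 6.06e-04. A difference of this size is short of the 1.3-fold cutoff, which is 0.38 on the log2 scale, although the interval reaches past it. The deposited intensities before any scaling were 452 and 470 on the pair of arrays of control sample 1, and 385 and 397 in control samples 2 and 3. They were 332 and 348 in moR-21 samples 1 and 2, and 324 and 347 on the pair of arrays of moR-21 sample 3, all lower than any control array. The probe was detected on all 8 arrays. The repeat arrays of 1 sample differed by as much as 0.20 for this probe, in moR-21 sample 3, against -0.09 in control sample 1. The exact permutation test of the single probe gave a two-sided p of 0.1, the smallest that 3 against 3 samples allow.

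Itgav (probe ILMN_1238119) encodes the alpha v chain, which pairs with beta 5 and also, among others, with beta 1 and beta 3. It lies at chr2:83722303-83806917. Its log2 intensity was 7.03, 7.09 and 7.11 in the control samples, and 6.81, 6.79 and 6.83 in the moR-21 samples. The groups did not overlap, and the moR-21 samples sat at the lower limit of detection. The means were 7.08 ± 0.042 and 6.81 ± 0.017 (SD, n = 3 each), and the difference was -0.26 (SE 0.045, 95% confidence interval -0.36 to -0.17, limma adjusted p 4.71e-04). The intensity fell by 16.7% on this scale. The probe was detected on all 4 control arrays but on 1 of 4 moR-21 arrays, whose detection p-values were 0.010, 0.0238, 0.0226 and 0.00251. The exact two-sided permutation p was 0.1, again the smallest possible. No background was subtracted from these intensities, and the size of the Itgav difference depended on that setting. After the neqc correction, which takes the background from the detection p-values, the control samples were at 5.57, 5.73 and 5.79 and the moR-21 samples at 4.90, 4.82 and 4.94. The difference was then -0.81 (limma adjusted p 1.91e-04), and after the normexp correction it was -0.65 (limma adjusted p 1.24e-04), both past the cutoffs for a call. Since 3 of the 4 moR-21 arrays did not detect the probe, the size of these differences is not settled. With undetected arrays set at their lowest detected value, Itgav without correction was at least 1.18-fold higher in control than in moR-21 samples. After neqc, 4.78% of all genes tested were called lower, and after normexp 5.8%. For Itgb5 the same corrections gave -0.38 and -0.37, with adjusted p of 0.00829 and 0.00502, and Itgb5 was not called.

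**Figure D2:**
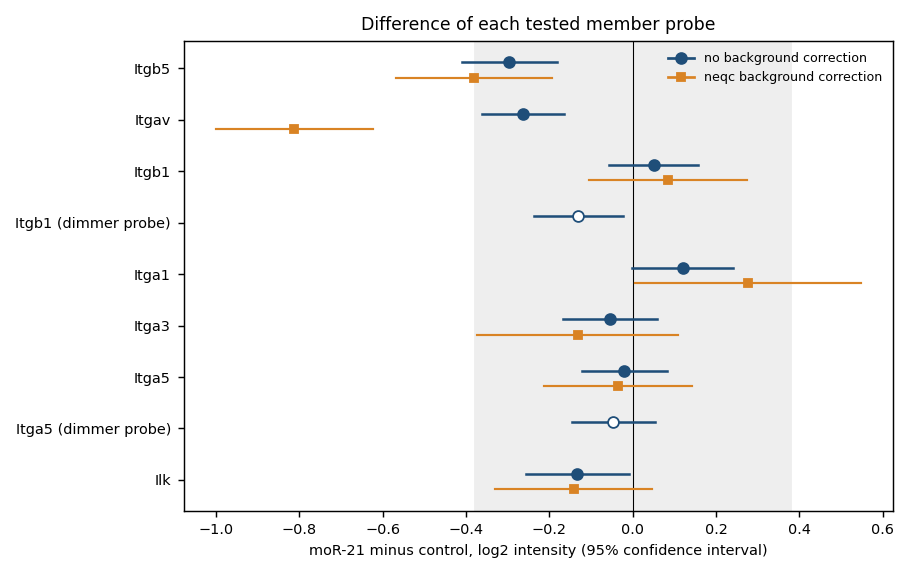
The difference of moR-21 minus control in log2 intensity is plotted with its 95% confidence interval for each of the 9 tested probes, blue without background correction and orange after neqc for the brightest probe of each gene, with open circles for dimmer probes. The shaded range is 1.3-fold either way. The Itgav difference moves from -0.26 to -0.81 with the correction, with its probe detected on 1 of 4 moR-21 arrays, and that of Itgb5 from -0.30 to -0.38.

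**Figure D3:**
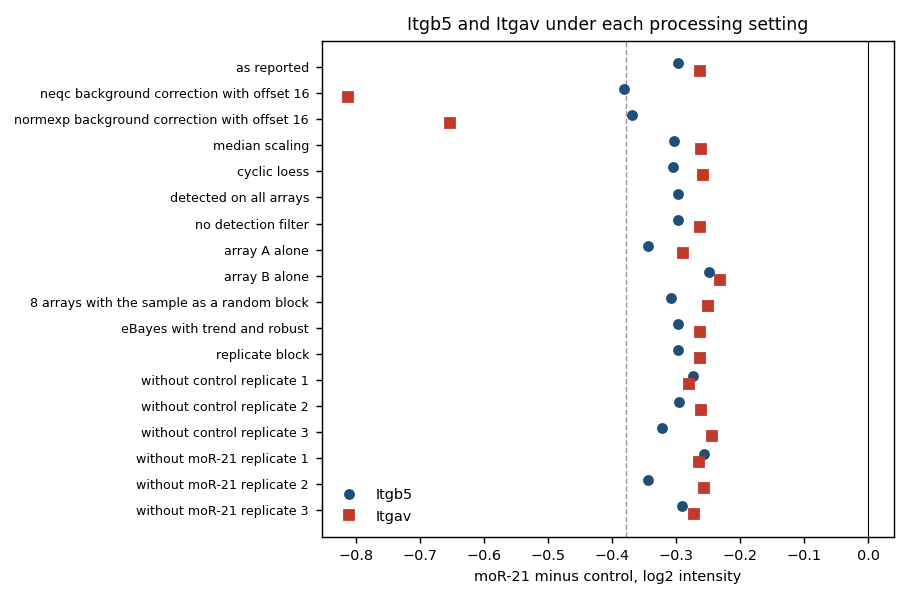
The difference of moR-21 minus control in log2 intensity is plotted for Itgb5 (blue circles) and Itgav (red squares) as reported and under each of the other settings. The dashed line is the 1.3-fold cutoff. Itgb5 lies between -0.38 and -0.25, and Itgav between -0.81 and -0.23, with no value at the setting that keeps probes detected on all arrays.

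Itgb3 encodes the beta 3 chain, the third partner of alpha v considered here, and is known from platelets and from injured arteries. Its single probe (ILMN_3002896, gene at chr11:104608000-104670476) was not detected on any of the 8 arrays. The log2 intensity was 6.72, 6.71 and 6.73 in control samples and 6.57, 6.58 and 6.69 in moR-21 samples. These values lie below the lowest detected level of every array, so they give an upper bound and no comparison.

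The smooth muscle markers moved in both directions. Of the 6 tested, 3 were higher and 1 lower at a limma adjusted p under 0.05, against 18.8% and 17.3% of all genes tested. Acta2 rose by 0.40 and Mylk by 0.24. Tagln was counted as higher but was detected on 4 arrays only. Its control mean of 6.74 lay below the lowest detected level of every array, so the size of its difference is not settled. Des fell by 0.38 (limma adjusted p 8.60e-05), and Smtn and Lmod1 differed by -0.05 and 0.05. Summed over the list, the marker intensity was between 10600 and 10980 in the control samples and between 13380 and 14230 in the moR-21 samples, most of it from Acta2, whose mean log2 intensity was 13.18 in control and 13.58 in moR-21 samples. The summed endothelial markers were between 1206 and 1249 in control and between 1212 and 1234 in moR-21 samples, and none of the tested ones, Egfl7 and Vwf, passed the adjusted threshold. The summed macrophage markers were between 2593 and 2656 in control and between 2568 and 2659 in moR-21 samples, but their members moved in opposite directions. Lyz and Lyz2, lysozyme genes, rose by 0.58 and 0.48 (limma adjusted p 1.58e-06 and 1.79e-06), Cd14 fell by 0.27 (limma adjusted p 3.38e-04), and Csf1r differed by -0.01. The marker sums also hold the background signal of undetected probes. Only 2 of the 10 endothelial and 4 of the 10 macrophage markers were detected on any array, so these sums are a weak measure of marker level. The part of these markers in the Itgb5 and Itgav results was not tested. In RNA from whole cultures, fewer cells that express a gene and less of its RNA per cell cannot be told apart.

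Itgb1 encodes the beta 1 chain, the common partner of the collagen, laminin and fibronectin receptors, and lies at chr8:128685654-128733579. Its brighter probe (ILMN_2789077) was at 7.58, 7.65 and 7.62 in control samples and at 7.60, 7.74 and 7.66 in moR-21 samples. The groups overlapped, with a difference of 0.05 (95% confidence interval -0.06 to 0.16, limma adjusted p 0.488). Its dimmer probe (ILMN_2609304) was at 7.30, 7.45 and 7.34 in control samples and at 7.24, 7.22 and 7.22 in moR-21 samples. Here every moR-21 sample was below every control sample, with a difference of -0.13 (SE 0.050, 95% confidence interval -0.24 to -0.02, unadjusted limma p 0.0198, adjusted p 0.0569). The probes of Itgb1 therefore disagreed in sign, and neither passed the adjusted threshold. Both probes were detected on all 8 arrays.

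Of the alpha chains of the set that pair with beta 1 but not with beta 5, Itga1, Itga3 and Itga5 were tested and none passed the adjusted threshold. Itga1, a collagen receptor chain that is typical of vascular smooth muscle (ILMN_2967445, gene at chr13:114958079-115101964), was at 7.09, 7.08 and 7.15 in control samples and at 7.35, 7.17 and 7.16 in moR-21 samples. All moR-21 samples were above all control samples. The difference was 0.12 (95% confidence interval -0.002 to 0.24, limma adjusted p 0.125, exact permutation p 0.1), and without moR-21 sample 1 it was 0.06 (limma adjusted p 0.465). The value thus moved with 1 sample.

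Itga3, a laminin receptor chain (ILMN_2616164, gene at chr11:95044475-95076844), was at 7.23, 7.20 and 7.25 in control samples and at 7.08, 7.16 and 7.27 in moR-21 samples. The moR-21 samples lay on both sides of the controls, with a difference of -0.06 (95% confidence interval -0.17 to 0.06, limma adjusted p 0.467). Itga5, the fibronectin receptor chain (gene at chr15:103344286-103366791), had a pair of tested probes. The brighter one (ILMN_2849449) was at 7.58, 7.56 and 7.52 in control samples and at 7.52, 7.59 and 7.49 in moR-21 samples, a difference of -0.02 (95% confidence interval -0.12 to 0.08, limma adjusted p 0.794). The dimmer one (ILMN_2670172) gave -0.05 (limma adjusted p 0.495) and was missed on 1 moR-21 array. The intervals of both genes lay within 1.3-fold either way, as did those of Itgb1, Itga1, Ilk and Itgav without background correction, 6 of the 7 tested members. After neqc or normexp this held for 4 of 7.

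Itga7, a laminin receptor chain known from contractile muscle (ILMN_1257880, gene at chr10:128933421-128958286), was not detected on any array. Its mean log2 intensity was 6.59 ± 0.056 in control and 6.60 ± 0.015 in moR-21 samples (SD, n = 3 each), below the lowest detected level in both groups. Itga8, a chain known from contractile smooth muscle, has its gene at chr2:12106632-12301985 and no probe with its symbol.

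Ilk, a pseudokinase that links beta tails to parvin and PINCH proteins at focal adhesions, lies at chr7:105736590-105742925. Its brighter probe (ILMN_2842137) was at 10.53, 10.30 and 10.46 in control samples and at 10.34, 10.28 and 10.27 in moR-21 samples. Control sample 2 lay within the range of the moR-21 samples, and the other control samples were above all of them. The difference was -0.13 (SE 0.058, 95% confidence interval -0.26 to -0.009, unadjusted limma p 0.0370, adjusted p 0.0934, exact permutation p 0.2). Without control sample 2 it was -0.20, with a limma adjusted p of 0.0144. The dimmer Ilk probe was detected on 0 of 8 arrays and stood at 6.75 ± 0.0032 in control and 6.73 ± 0.011 in moR-21 samples.

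The samples of a group lay close together. Over the 9 tested probes the control SD ran from 0.016 for the dimmer probe of Itga5 to 0.12 for Ilk, and the moR-21 SD from 0.014 for the dimmer probe of Itgb1 to 0.11 for Itga1. The array repeats of a sample differed by up to 0.20 for Itgb5 and by -0.13 for Itgav.

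The genes whose log2 intensity followed Itgav most closely over the 6 samples were H3f3b, which encodes the replacement histone H3.3, Cdc37l1, a relative of the kinase co-chaperone Cdc37, and the dipeptidyl peptidase Dpp9, with Pearson correlations of 0.999, 0.998 and 0.997. Their own differences were -0.64, -0.24 and -0.30. Itgav was chosen as the member with the smallest limma p, the 6 points fall into a pair of treatment groups, and 944 genes correlated with it above 0.9, so the correlations are given as a description.

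Promoter windows are shown for Itgav and Itgb5, the pair of members that passed the adjusted threshold, both the 250 bases before a RefSeq transcript start on the plus strand of GRCm38.p6. Capitals mark the GC box GGGCGG on either strand. The Itgav window, chr2:83724147-83724396, lies inside the annotated gene, before one of its transcript starts. The Itgb5 window is chr16:33829415-33829664, just before the gene.
Itgav promoter: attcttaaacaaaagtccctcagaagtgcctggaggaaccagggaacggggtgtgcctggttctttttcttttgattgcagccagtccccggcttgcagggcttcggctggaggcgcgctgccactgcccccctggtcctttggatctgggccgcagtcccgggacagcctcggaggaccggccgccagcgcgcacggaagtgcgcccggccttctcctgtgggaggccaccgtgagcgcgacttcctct
Itgb5 promoter: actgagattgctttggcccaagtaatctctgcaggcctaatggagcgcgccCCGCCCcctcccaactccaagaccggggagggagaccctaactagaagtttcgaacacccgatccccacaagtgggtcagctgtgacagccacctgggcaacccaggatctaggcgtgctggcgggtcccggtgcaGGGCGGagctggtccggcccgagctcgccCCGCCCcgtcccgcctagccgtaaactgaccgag

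The Itgb5 window held 3 GC boxes and the Itgav window 0, where 32.7% of 32851 mouse promoter windows of the same length held at least 1. Windows were found for 8 members, all but Itga7 and Itgb3, and 6 of their 10 windows held a GC box. The GC content was 64.4% for Itgav and 65.2% for Itgb5, against a median of 52.4% over all windows. Neither window held TATAAA (12.4% of all windows), the CArG box of smooth muscle promoters (1.47%), the TEAD site GGAATG (12.6%), the AP-1 site TGACTCA (4.46%) or CCAAT (33.8%). Both strands were searched, each motif on its own. Such a match is a string of letters and was not tested as a binding site.

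The other integrin subunits were mostly not detected. Of 18 genes in this list, 16 were on the array and 4 were tested. Of the 4, 1 was called lower and 0 higher, against 4.38% and 3.41% of all genes tested. The median difference was -0.002 beside 0.01 for all genes tested. Itga11, the alpha chain of a collagen receptor that also pairs with beta 1, was at 8.50, 8.60 and 8.50 in control samples and at 8.04, 8.01 and 8.25 in moR-21 samples. It fell by 0.43 on the log2 scale (limma adjusted p 1.07e-04), and its dimmer probe by 0.17 (limma adjusted p 0.0223). After neqc the difference was -0.59 with an adjusted p of 0.00280, and Itga11 was no longer called. Itgae, the alpha chain of an E-cadherin receptor of lymphocytes, was at 6.74, 6.72 and 6.81 in control and at 6.96, 7.00 and 6.95 in moR-21 samples, but its probe was detected on all 4 moR-21 arrays and on 0 of 4 control arrays. With the control arrays set at their lowest detected value it was at least 1.10-fold higher in moR-21 samples, a bound that was not tested. Itgb4, the beta chain of hemidesmosomes, differed by -0.03 (limma adjusted p 0.705).

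Of the cytoplasmic adaptors, kinases and other proteins at or downstream of integrin tails, 26 of the 37 listed were tested. Of these, 1 was called higher and 1 lower, against 3.41% and 4.38% of all genes tested. The median difference was 0.09, with 18 above 0 and 8 below, where 4519 of the 8727 genes tested were above 0 and 4208 below. At an adjusted p under 0.05 there were 9 higher and 3 lower, against 18.8% and 17.3% of all genes tested. Crk, an SH2 and SH3 adaptor downstream of focal adhesions, was at 9.56, 9.47 and 9.47 in control samples and at 10.67, 10.49 and 10.40 in moR-21 samples, and rose by 1.02 (limma adjusted p 3.26e-08). Csk, the kinase that restrains Src, was at 9.81, 9.94 and 9.88 in control samples and at 9.23, 9.29 and 9.28 in moR-21 samples, and fell by 0.61 (limma adjusted p 4.58e-07). For both, no samples overlapped, but both were picked by their calls in the same samples. Of all genes tested, 24.4% had every moR-21 sample above the controls and 21.9% had every one below. Bcar1, the docking protein that Crk binds, differed by -0.29 (limma adjusted p 2.58e-04), short of the fold cutoff. The kindlin Fermt2 differed by -0.07, talin Tln1 by 0.006, paxillin Pxn by 0.006 and focal adhesion kinase Ptk2 by 0.08, none past the adjusted threshold.

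Of 41 matrix and matrix-bound ligands of integrins, 23 were tested. Of these, 8 were called lower and 0 higher by limma, against 4.38% and 3.41% of all genes tested. At an unadjusted p under 0.05, 11 were lower and 2 were higher, where 21.1% of all genes tested were lower and 23.4% higher. The higher ones were Mfge8 by 0.18 and Cyr61 by 0.17 (limma adjusted p 0.0268 and 0.0159), both short of 1.3-fold. Their dimmer probes gave 0.33 and 0.007. The list was not split by the integrin that binds each ligand. The median difference of the list was -0.06. The widest difference was that of Tgfbi, a secreted protein bound by integrins, among them those with alpha v. It was at 9.09, 9.14 and 9.23 in control samples and at 8.31, 8.23 and 8.18 in moR-21 samples and fell by 0.91 (limma adjusted p 1.70e-08), although its dimmer probe fell by 0.31. Fbn1, the fibrillin whose RGD site alpha v integrins bind, fell by 0.86, and the collagen VI chain Col6a2 fell by 0.83. The collagen IV chains Col4a2 and Col4a1 fell by 0.60 and 0.44. The fibrillar collagen chains Col1a2 and Col5a1 fell by 0.47 and 0.45, and the thrombospondin Thbs2 by 0.42. The other tested collagen chains of the list were not called. Col6a1 differed by -0.004, -0.04 and -0.07 at its tested probes, Col3a1 by 0.11 and -0.08, and Col1a1 by -0.20 (limma adjusted p 0.0293). Col1a2 was not called after neqc or normexp, with limma adjusted p of 0.00597 and 0.00284. For the 8 called genes every moR-21 sample was below every control sample, as for 21.9% of all genes tested. These genes were picked by their calls in the same samples, so this adds no support.

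**Figure D4:**
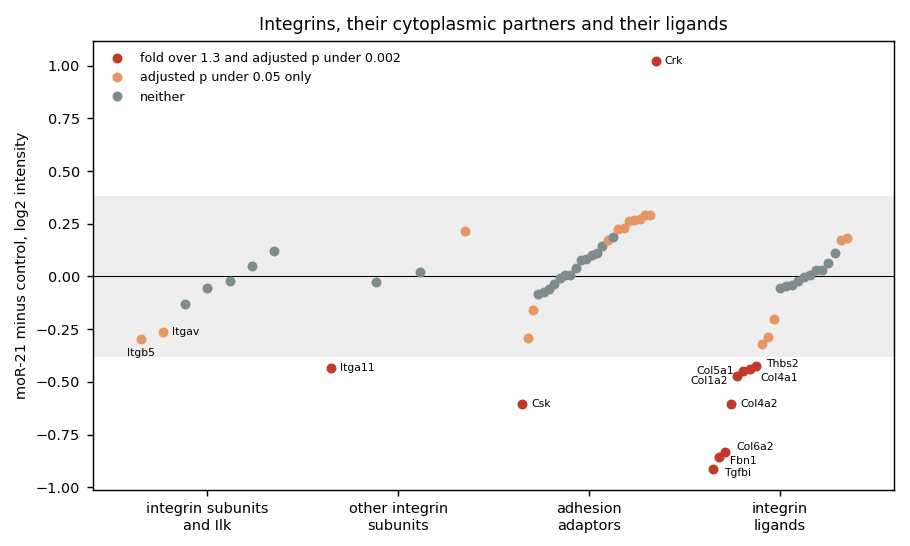
Each point is the difference of moR-21 minus control in log2 intensity for 1 tested gene at its brightest probe, in 4 groups, with 7 members, 4 other integrin subunits, 26 adhesion adaptors and 23 integrin ligands. Red points passed both the 1.3-fold cutoff, whose range is shaded, and the adjusted p. All points of the integrin subunits and Ilk lie inside the shading, whereas Itga11, Crk, Csk and 8 ligands lie outside it.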

How the data were processed

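RNA of 6 samples was measured on 8 Illumina mouse expression arrays. The authors deposited, for each probe and array, a non-normalized intensity and a detection p-value, and no background correction is stated. Their methods name quantile normalization, lumi and limma. Every column was assigned to a sample by its name.

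Quantile normalization was run over the 8 arrays at once, log2 values were taken, and arrays of 1 sample were averaged. A probe entered the fit when its detection p-value was below 0.01 on any array, and probes were fitted with limma 3.58.1 (lmFit and eBayes, R 4.3.3) without covariates, and p-values were adjusted by Benjamini and Hochberg over 11651 probes. A call needed an adjusted p under 0.002 together with a 1.3-fold difference, as in the study. The small number of samples limits the precision. The script was first tested on simulated data.

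Members and gene lists were chosen with earlier results of these data known. Named were all members, every called gene of the other lists and, where under 3 were called, those with the smallest p until 3 were named. Other genes were named after their values were seen. The ligand symbols Fn1, Nov, Lama3, Lama5 and Col6a3 had no probe. Positions and sequences came from RefSeq tables of GRCm38.p6, read with Python 3.11.15. The alternatives were neqc and normexp background correction (offset 16), cyclic loess, median scaling, stricter or no detection filters, array A or B alone, all arrays with the sample as a random block, eBayes with trend and robust, a replicate block, each sample left out, other cutoffs and dimmer probes. Seed matches in transcripts were not analysed here.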

Additional observations from a re-analysis of the deposited data

How the results depend on the processing

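The number of members called was 0 at all settings but 3: 1 after neqc and 1 after normexp correction, Itgav in both, and 2 at an adjusted p under 0.05 with no fold cutoff, Itgav and Itgb5. At that cutoff the other integrin subunits had 2 calls, the adaptors 12 and the ligands 13, where 17.3% of all genes tested were lower and 18.8% higher. Normexp gave the other integrin subunits 2. Under neqc their count was 1, but the call was Itgae, higher, in place of Itga11, lower. Itgae was also 1 of the 2 calls after normexp and at the adjusted p cutoff. Its probe was detected on 0 of 4 control arrays and entered the fit through the moR-21 arrays alone. The Itgae calls are therefore not taken as support for a change. At a fold change over 1.5 the other integrin subunits had 0 calls by limma, as Itga11 fell short. The ligands had 4, namely Tgfbi, Fbn1, Col6a2 and Col4a2. The share of all genes called at that cutoff was not computed, so these counts have nothing to be read against. Itgb5 ranged from -0.38 to -0.25 over 17 other settings and Itgav from -0.81 to -0.23 over 16, and each had an adjusted p under 0.05 at all of them. Itgav had no value at the filter for detection on all arrays. Ilk had an adjusted p under 0.05 at 3 of 17 settings, namely cyclic loess, the sample as a random block and without control sample 2. A change of direction was seen for Itga5, from -0.02 to 0.0023 without moR-21 sample 3, with -0.049 as the lowest value with 1 sample left out, and for Itgb1, whose dimmer probe gave -0.13. The cause was not tested.

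Control and moR-21 samples with the same number had deviations that correlated at 0.19, 0.04 and 0.06. Samples with different numbers had correlations from -0.13 to 0.07. These values do not settle whether the numbers mark pairs, and the main fit did not take them as pairs. With the number as a replicate block, 0 members were called by limma, the difference was -0.30 for Itgb5 (adjusted p 1.82e-04) and -0.26 for Itgav (2.84e-04), and 682 genes were called in place of 680. Each scaling left the median difference of all genes at 0.01 at most.

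The limits are 3 samples a group, an exact p of at least 0.1 for any single probe, intensities that hold background, and 1 or 2 probes a gene. Itgav lay at the detection limit in the moR-21 samples.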

Other observations

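Ilk forms a complex with a PINCH protein (Lims1 or Lims2), a parvin (Parva) and the Ras suppressor Rsu1, and these genes were singled out from the adaptor list after their values were seen. Lims1 was not among the tested adaptors, so Lims2 alone stands for the PINCH proteins here. Lims2 differed by 0.27 at its brightest probe (95% confidence interval 0.16 to 0.37, limma adjusted p 7.49e-04) and by 0.13 and 0.27 at its other tested probes. Parva differed by 0.22 (0.11 to 0.34, limma adjusted p 0.00443) and Rsu1 by -0.04 (limma adjusted p 0.694), beside -0.13 for Ilk (limma adjusted p 0.0934). Among the other adaptors, Itgb1bp1, which binds the beta 1 tail, differed by 0.29, the actin crosslinker Actn1 by 0.29 and the Crk relative Crkl by 0.27, all at an adjusted p under 0.05 and short of 1.3-fold. Actn4 went the other way, with -0.16 at its brightest probe (limma adjusted p 0.0253) and -0.17 and -0.005 at its other tested probes. Of the 26 tested adaptors, 9 were higher and 3 lower at that threshold, against 18.8% and 17.3% of all genes tested. The probes of Src disagreed, with 0.26 at the brighter (limma adjusted p 5.94e-04) and -0.01 at the dimmer (limma adjusted p 0.850).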
